A study of Mus musculus with 14 samples.

Results

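Distal intergenic H3K27ac sites were the sites of immortalised mouse embryo fibroblasts (iMEF) that lay far from every protein-coding gene. They were chosen by position alone, from a single list of 122228 sites. The middle of a site had to lie outside all protein-coding gene bodies, more than 200 kb from every transcription start site (TSS) of a protein-coding gene and more than 3 kb from any annotated TSS. These criteria were met by 7073 sites, which was 5.79% of the 122171 sites on chromosomes 1 to 19 and X. Of these 122171 sites, 46813 had their middle outside coding gene bodies and 7928 of those were more than 200 kb from a coding TSS. A further 616 were removed because they lay within 3 kb of another TSS, and 239 because they lay in a 3.5-Mb stretch of chromosome 15 next to Myc that was not counted here.

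Acetylation of lysine 27 of histone H3 (H3K27ac) is placed by the acetyltransferases CBP and p300 and marks active promoters and active enhancers. Enhancers are stretches of DNA that bind transcription factors and act on promoters from a distance, often by looping. Long regions without coding genes, called gene deserts, frequently flank genes that control development, and many of their known functional elements are such remote enhancers.

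The study followed H3K27ac by ChIP-seq, in which chromatin is precipitated with an antibody and the recovered DNA is sequenced, after loss of ASH2L, which the KMT2 methyltransferases need as a core partner to modify lysine 4 of histone H3. All cells were iMEF that carried a lentiviral construct for human ASH2L fused to an FKBP tag in place of their own Ash2l, and per the legends of the study they belonged to 1 clone, named NG3. The 12 H3K27ac libraries comprised 2 from cells without dTAG and 2 each from cells treated with dTAG, which directs the tagged protein to degradation, for 30 min, 2 h, 4 h, 8 h and 16 h. Input chromatin was sequenced in 2 further libraries, from cells without dTAG and after 16 h. The sites of all these samples were joined into 1 list of positions, so that no value for a single library, no replicate error and no change over time was available, and the list did not give the read depth behind a site. All comparisons below are therefore descriptions without a test, and intervals reflect counting error alone, as sites next to each other share their surroundings.

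The identity of the cells was checked by promoter sites, that is sites whose middle was within 1 kb of a TSS of the gene. Of 10 fibroblast markers, 8 had one, among them Col1a2, Col3a1, Fn1, Vim and Twist1, while Col1a1 and Prrx1 did not. Of 11 markers of other cells, 3 had one. Among all 21755 coding genes, 54.7% had one. The markers of other cells with a promoter site were Krt8, Cd68 and Cdh5, and those without included Cdh1, Ptprc, Pecam1, Snap25, Pou5f1 and Nanog.

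The sequences at the middle of 8 distal intergenic sites are shown to give an impression of what such sites contain. The first is from the widest site, the next 6 are from the widest site of each of the 6 deserts with most sites, and the last is from the site farthest from any coding TSS. Each is 200 bp of the plus strand of GRCm38 around the middle of the site, and it is named after the coding genes on either side. Capitals mark matches to TGANTCA, the core of the AP-1 motif, or to GGAATG, the core of the TEAD motif, on either strand. AP-1 and TEAD proteins are transcription factors that are often found at fibroblast enhancers.
Klf4 to Actl7b, chr4:55732623-55732822: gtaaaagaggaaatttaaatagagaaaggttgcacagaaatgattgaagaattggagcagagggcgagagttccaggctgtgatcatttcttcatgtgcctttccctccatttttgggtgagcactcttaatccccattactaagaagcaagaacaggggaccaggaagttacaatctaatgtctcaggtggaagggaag
Rasgrp1 to Thbs1, chr2:117871650-117871849: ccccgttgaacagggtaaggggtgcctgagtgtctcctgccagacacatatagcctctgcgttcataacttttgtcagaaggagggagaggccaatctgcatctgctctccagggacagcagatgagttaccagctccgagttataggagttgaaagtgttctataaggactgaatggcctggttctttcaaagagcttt
Nmbr to Cited2, chr10:16878046-16878245: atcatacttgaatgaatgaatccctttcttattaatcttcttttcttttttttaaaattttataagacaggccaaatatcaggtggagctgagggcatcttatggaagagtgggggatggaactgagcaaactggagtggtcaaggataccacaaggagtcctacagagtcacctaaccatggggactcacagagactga
Ubash3b to Sorl1, chr9:41766675-41766874: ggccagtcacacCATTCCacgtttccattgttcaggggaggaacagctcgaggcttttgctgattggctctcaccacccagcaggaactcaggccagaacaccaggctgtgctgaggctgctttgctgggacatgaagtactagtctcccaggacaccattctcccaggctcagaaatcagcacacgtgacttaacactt
Tnc to Pappa, chr4:64674181-64674380: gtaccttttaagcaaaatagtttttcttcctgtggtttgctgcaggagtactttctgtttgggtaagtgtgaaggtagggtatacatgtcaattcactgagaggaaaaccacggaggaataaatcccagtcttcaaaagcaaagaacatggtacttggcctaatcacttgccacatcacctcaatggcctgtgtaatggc
Adamts5 to N6amt1, chr16:86303988-86304187: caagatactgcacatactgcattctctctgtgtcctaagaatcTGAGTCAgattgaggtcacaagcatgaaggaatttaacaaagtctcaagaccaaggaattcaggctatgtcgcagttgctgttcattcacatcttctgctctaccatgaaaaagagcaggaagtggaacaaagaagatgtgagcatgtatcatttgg
Kcnj2 to Sox9, chr11:112056280-112056479: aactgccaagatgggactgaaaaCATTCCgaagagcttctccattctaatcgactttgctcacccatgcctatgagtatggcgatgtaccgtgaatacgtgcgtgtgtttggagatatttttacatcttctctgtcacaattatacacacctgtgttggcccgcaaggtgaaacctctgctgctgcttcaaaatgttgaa
Olfm4 to Pcdh17, chr14:82066054-82066253: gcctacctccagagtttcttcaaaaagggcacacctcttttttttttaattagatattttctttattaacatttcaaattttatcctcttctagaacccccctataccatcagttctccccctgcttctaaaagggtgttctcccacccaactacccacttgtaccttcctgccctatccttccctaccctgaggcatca
One AP-1 match was present in the window between Adamts5 and N6amt1, and 1 TEAD match each was present in the windows between Ubash3b and Sorl1 and between Kcnj2 and Sox9. The other 5 windows had no match to either motif. The GC content of the 8 windows ranged from 41% to 54%.

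The density of sites was lower the farther a region lay from coding genes. The sequence that satisfied the same criteria as the sites, called distal territory here, comprised 516 Mb, or 20.2% of the 2559 Mb of sequence outside assembly gaps. It carried 13.7 sites per Mb, compared to 47.7 sites per Mb of all sequence and 34.8 sites per Mb of nearer intergenic sequence. The density in distal territory was thus 0.287 times that of all sequence. Intergenic sequence up to 20 kb from a coding TSS had 38.6 sites per Mb. The value was 28.6 between 100 and 200 kb, 21.8 between 200 and 300 kb, 15.9 between 300 and 500 kb, 8.85 between 500 and 1000 kb and 4.38 beyond 1000 kb. No step was seen at the limit of 200 kb. The 10 kb just beyond the limit held 414 distal intergenic sites with a median width of 371.5 bp and the 10 kb just short of it held 399 sites with a median of 336 bp. The nearest site inside lay 200020 bp and the nearest outside 199963 bp from a coding TSS.

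**Figure D1:**
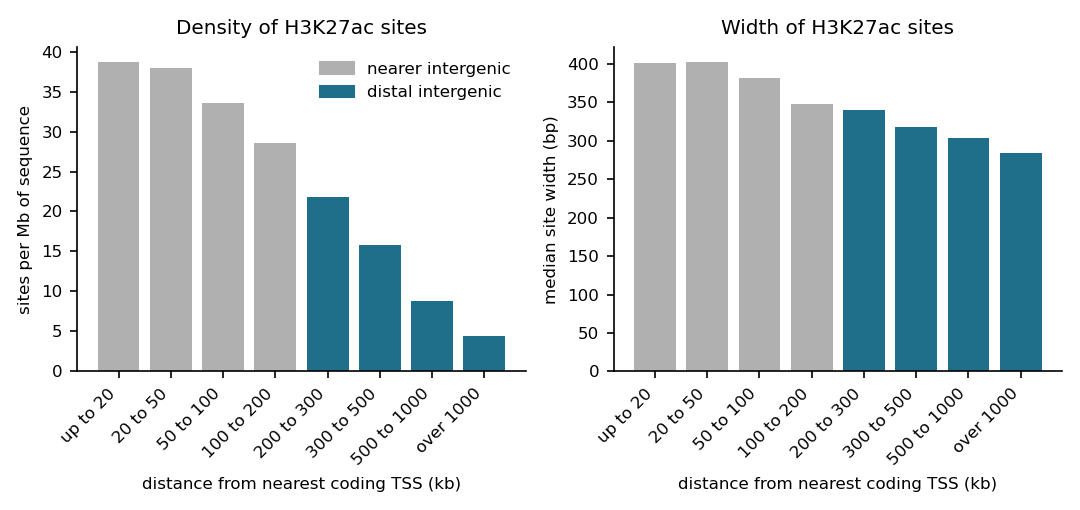
Density (sites per Mb, left) and median width (bp, right) of intergenic H3K27ac sites in 8 bands of distance from the nearest coding TSS (kb), with bands short of 200 kb in grey and distal bands in blue. Density goes from 38.6 sites per Mb in the first band to 4.38 in the last, and median width from 401 to 284.5 bp.

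The lower density was seen on all 20 chromosomes. The ratio of distal territory to all sequence of the same chromosome was between 0.135, on chromosome 17, and 0.538, on chromosome 9. Chromosomes 3, 2 and 13 had the highest numbers of distal intergenic sites, with 671, 668 and 666, respectively. Relative to territory, chromosome 13 came first with 28.9 sites per Mb, followed by chromosome 9 with 27.7 and chromosome 10 with 24.0. Chromosome 5 had 6.89 and chromosome 17 had 6.91 sites per Mb. The X chromosome had 72 sites and the lowest value, 2.11 per Mb, and its density over all sequence was also the lowest, 12.6 per Mb.

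The distance to the nearest coding TSS had a median of 329 kb, with quartiles of 254 and 485 kb. More than 500 kb was reached by 1689 sites (23.9%) and more than 1000 kb by 306. The farthest site, chr14:82065790-82066518, lay 2066 kb from the nearest coding TSS, which belonged to Olfm4, a gene for a secreted glycoprotein. It was 729 bp wide, and 65.6% of it was repeat sequence. The nearest TSS of any kind was much closer in general, with a median distance of 42.2 kb, because non-coding genes and pseudogenes are annotated within the deserts. Gene bodies of long intergenic non-coding RNAs (lincRNAs) contained the middle of 1011 sites (14.3%, 95% Wilson interval 13.5 to 15.1%), and those of other long non-coding RNAs contained 254 (3.59%, interval 3.18 to 4.05%). The share of territory within such gene bodies is not given here, so no excess can be read from these values or from those of single deserts below. In the RefSeq annotation, 48 sites (0.679%) lay within a protein-coding gene body. An assembly gap of at least 1 kb was within 10 kb of 1 site.

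Distal intergenic sites were narrow. They had a median width of 320 bp, with quartiles at 240 and 485 bp. The 29095 nearer intergenic sites had a median of 384 bp, with quartiles at 262 and 654 bp. These sites met the same criteria but lay within 200 kb of a coding TSS. The ratio of these medians was 0.833, and it was below 1 on all 20 chromosomes, with values between 0.729 and 0.906. The 48355 sites within coding gene bodies and more than 3 kb from a TSS had a median of 367 bp, and the 22885 promoter sites one of 678 bp. The narrowest width in the list, 200 bp, was that of 8.41% of distal intergenic sites and of 5.73% of nearer intergenic sites. A width of more than 2000 bp was found for 48 distal intergenic sites (0.679%), compared to 3.29% of the nearer ones. Together the distal intergenic sites covered 2.998 Mb, or 0.581% of the territory.

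Within the distal sites, those farthest out were the narrowest. The median was 340 bp between 200 and 300 kb, 318 bp between 300 and 500 kb, 304 bp between 500 and 1000 kb and 284.5 bp beyond 1000 kb. More than 1000 bp was reached by 6.70%, 4.63%, 2.82% and 0.980% of the sites in these bands. Sites of the outermost band also consisted more often of repeats. Their mean repeat content was 46.6%, compared to 22.1% between 200 and 300 kb, whereas GC content was 47.3% and 47.2%.

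The 5 widest distal intergenic sites lay between 200 and 303 kb from the nearest coding TSS. The widest, chr4:55730103-55735344, measured 5242 bp. It lay 200 kb from Klf4, which encodes a zinc-finger transcription factor, and was thus close to the limit that defined distal sites. Its GC content was 46.2%, 18.6% of it was repeat sequence and it contained 4 AP-1 matches. The next 2 were both between Rps24, a ribosomal protein gene, and Zmiz1, a transcriptional co-regulator gene. They measured 4643 bp (chr14:25225450-25230092) and 3469 bp (chr14:24792338-24795806) and lay 231 kb from Zmiz1 and 303 kb from Rps24. The fourth, of 3406 bp (chr12:79904823-79908228), was 206 kb from Zfp36l1, whose product promotes decay of mRNAs with AU-rich elements. The fifth, of 3262 bp (chr2:128338020-128341281), was 212 kb from Bcl2l11, which encodes the pro-apoptotic protein BIM, and overlapped the lincRNA gene Gm14005. The other 4 overlapped no annotated gene.

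Most distal intergenic sites lay close to other sites. Another site of the list was within 1 kb of 4212 of them (59.6%, interval 58.4 to 60.7%), compared to 71.9% of nearer intergenic sites and 72.2% of all sites. When sites separated by less than 10 kb were joined, 4504 distal sites (63.7%, interval 62.6 to 64.8%) fell into 761 clusters of 3 or more, while 1437 stood alone and 566 clusters were pairs. Joined in the same way, 71.1% of nearer intergenic sites and 79.1% of all sites were in clusters of 3 or more. There were 88 clusters of 10 or more distal sites. Neighbours were less common farther out. Beyond 1000 kb, 35.3% of sites had a neighbour within 1 kb and 40.5% were in a cluster of 3 or more, compared to 64.4% and 67.4% between 200 and 300 kb.

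The 5 largest clusters lay in 4 deserts. Both the largest and the second largest were between Rasgrp1 and Thbs1 on chromosome 2. The largest, chr2:117570524-117817899, contained 167 sites over 247 kb, of which 38.0% was covered by sites. The second, chr2:117836819-117911699, contained 52 sites over 74.9 kb with 49.5% covered, the highest share among the 5. The third, chr13:110895179-110969302, had 47 sites over 74.1 kb between Plk2 and Actbl2, with 29.8% covered. It was followed by 37 sites over 66.4 kb between Ubash3b and Sorl1 (chr9:41461488-41527845, 39.7% covered) and by 35 sites over 83.1 kb between Inhba and Sugct (chr13:16692543-16775633, 19.9% covered). The first 4 of these clusters overlapped lincRNA genes, namely Gm28183 and Gm13985, 4930412B13Rik, 4930526H09Rik and Gm38397, and Gm48742 and Gm49317. The fifth overlapped no annotated gene. None of the 5 had a site as wide as 3 kb, and the widest site in them measured 2847 bp.

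The sites were concentrated in a small part of the deserts. A desert was taken as the stretch between neighbouring coding gene bodies that held distal territory. Of 922 deserts, 354 (38.4%) had 0 distal intergenic sites, and the median of the other 568 was 7. In 232 deserts there were 10 or more sites, and these held 5856 sites, or 82.8%, on 40.0% of the territory. The 354 deserts without a site held 124 Mb of territory. The 77 deserts with most sites held 50.2% of them on 13.4% of the territory. The first 12 of these held 1181 sites (16.7%) on 9.41 Mb, which was 1.82% of the territory. Large deserts differed widely, and 31 of the 155 deserts with at least 1 Mb of territory had 0 sites and 71 had 10 or more.

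**Figure D2:**
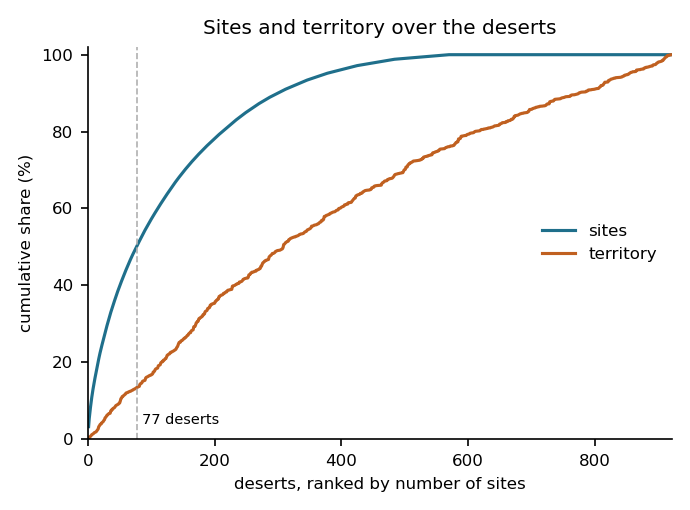
Cumulative share (%) of distal intergenic sites (blue) and of distal territory (orange) over the 922 deserts, ranked by number of sites. The dashed line marks the 77 deserts that held 50.2% of the sites on 13.4% of the territory.

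The desert with most sites was that between Rasgrp1, which encodes an activator of Ras, and Thbs1, which encodes the matrix glycoprotein thrombospondin 1 (chr2:117343002-118111875). Its 229 distal sites lay on 0.351 Mb of territory, which gave 653 sites per Mb, compared to 13.7 over all territory. The median width was 417 bp, and the sites formed only 3 clusters. Counted in fixed 100-kb stretches from the end of the left flanking gene, the richest, 300 to 400 kb from Rasgrp1, held 73 sites. A 100-kb stretch with another start can hold more. Long non-coding RNA genes contained 55 of the sites. Both flanking genes had a promoter site. With the sites closer than 200 kb to a coding TSS, this desert held 415 sites in all.

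The desert between Nmbr, the neuromedin B receptor gene, and Cited2, the gene of a co-regulator that binds CBP and p300, was the longest of the 12 with 2.95 Mb (chr10:14770851-17723217). It had 150 sites of a median width of 291.5 bp, or 62.7 per Mb of territory, and none was wider than 941 bp. The sites were spread over 44 clusters, 28 of them in the largest. They lay in 21 fixed 100-kb stretches, of which the richest was 1700 to 1800 kb from Nmbr with 31 sites. AP-1 matches in the 200 bp around the middle were present in 13.3% of the sites, compared to 9.29% of all distal intergenic sites. Among the 12 deserts this share ranged from 4.17% to 13.3%. Long non-coding RNA genes contained 54 of the sites.

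The desert between Ubash3b, a protein tyrosine phosphatase gene, and Sorl1, which encodes a sorting receptor, was the second densest of the 12 (chr9:41161698-41964719). Its 111 sites corresponded to 353 per Mb, and with a median of 481 bp they were the widest of the 12 deserts. Of these sites, 100 lay within long non-coding RNA genes, among them 3110039I08Rik, Gm48742 and Gm35835. The richest fixed 100-kb stretch held 50 of the sites, the highest share among the 6 deserts with most sites. Its territory, 0.314 Mb, was also the smallest of these 6.

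Several of the 12 deserts were next to genes of matrix proteins and secreted factors. Between Tnc, which encodes the matrix protein tenascin C, and Pappa, which encodes a protease of IGF-binding proteins, there were 99 sites (chr4:64047016-65124173, 150 per Mb). Between Adamts5, an aggrecan-cleaving protease gene, and N6amt1, a methyltransferase gene, there were also 99 (chr16:85901829-87354184, 99.2 per Mb). In the latter, the richest fixed 100-kb stretch was 300 to 400 kb from Adamts5 and held 29 sites. Between Inhba, which encodes a subunit of activin, and Sugct there were 72 sites (chr13:16031622-16857471), and between Fgf9, a growth factor gene, and 1700129C05Rik there were 69 (chr14:58112721-59133039). Inhba and Fgf9 had a promoter site, whereas Pappa and 1700129C05Rik had none.

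The desert between Kcnj2, a potassium channel gene, and Sox9, the gene of a transcription factor of cartilage and other mesenchymal tissues, is known for remote enhancers of Sox9. It had 82 distal sites with a median width of 343 bp (chr11:111076822-112782223, 64.1 per Mb of territory). The richest fixed 100-kb stretch held 17.1% of the sites, the lowest share among the 6 deserts with most sites, and the largest cluster had 10. The share in the richest stretch also depends on where the stretches start and on the length of territory. This was 1.28 Mb here and 0.314 Mb between Ubash3b and Sorl1, which had the highest share. The site nearest to Sox9 was 235 kb and the widest, of 1400 bp, was 726 kb from its TSS. The 3 long non-coding RNA genes of this desert contained 0 of the sites.

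The remaining 4 deserts had between 61 and 80 sites. There were 80 between Plk2, a polo-like kinase gene, and Actbl2, an actin-like gene, at 191 per Mb, and 65 between Arpp21 and Pdcd6ip, which encodes the ESCRT-associated protein ALIX, at 67.2 per Mb. Between Npvf, a neuropeptide gene, and Nfe2l3, a bZIP transcription factor gene, there were 64 sites at 178 per Mb, although neither flanking gene had a promoter site. The widest of these, 3221 bp, was 96.5 kb from the microRNA gene Mir148a and its observed to expected CpG ratio was 0.526, compared to a mean of 0.162 over distal intergenic sites. Between Mmadhc, a gene of vitamin B12 metabolism, and Rnd3 there were 61 sites at 143 per Mb, and of the 165 sites of any distance in this desert those 61 were distal.

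**Figure D3:**
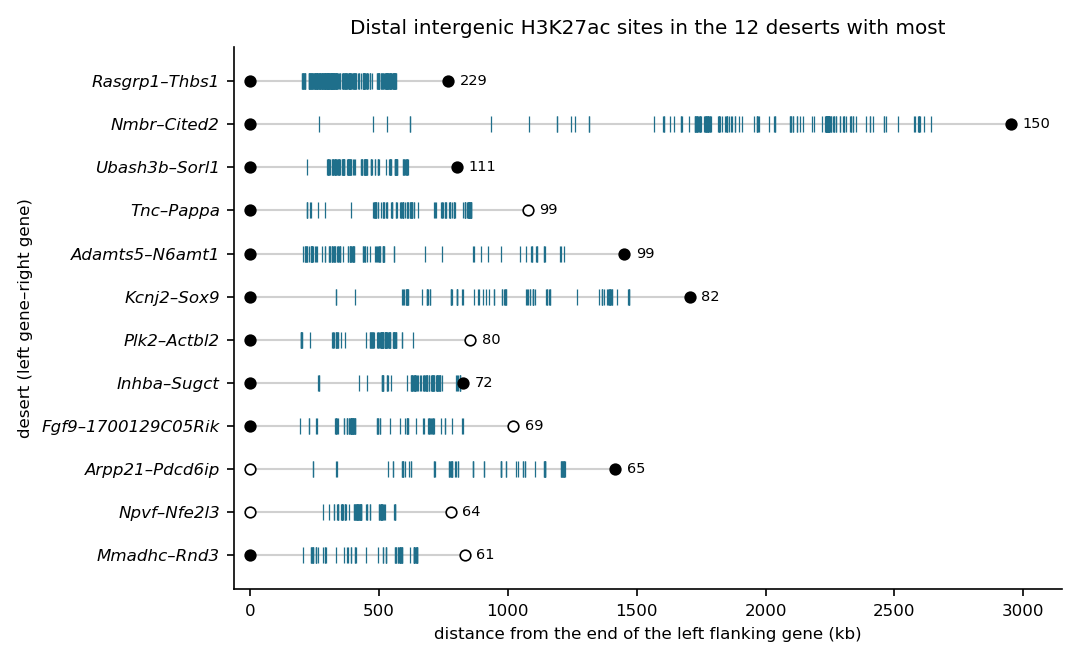
Position of each distal intergenic site (blue ticks) in the 12 deserts with most sites, in kb from the end of the left flanking gene, with the number of sites at the right. Circles are the flanking coding genes, filled where the gene had a promoter site, which was the case for 17 of 24 genes.

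The 5 longest deserts without a distal intergenic site were flanked mostly by genes without a promoter site. The longest, of 4.28 Mb on chromosome 1, lay between Cntnap5b, a contactin-associated protein gene, and Cdh20, a cadherin gene. The next were between Got2, a mitochondrial aminotransferase gene, and Cdh8, another cadherin gene, with 3.14 Mb, and between 4931417E11Rik and Gm9008 with 3.03 Mb. These 3 deserts had no H3K27ac site at any distance. Between Brinp3 and Pla2g4a (2.93 Mb) there were 7 sites and between 1700015G11Rik and Luzp2 (2.82 Mb) there were 11, all within 200 kb of a coding TSS or 3 kb of another. Of the 10 genes that flanked these 5 deserts, Got2 and Pla2g4a, which encodes a cytosolic phospholipase, had a promoter site.

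Genes next to deserts with many sites had a promoter site more often than genes next to deserts without. Of 445 coding genes that flanked deserts with 10 or more sites, 328 (73.7%, interval 69.4 to 77.6%) had a promoter site. It was 360 of 630 (57.1%, interval 53.2 to 61.0%) for deserts with 1 to 9 sites and 263 of 652 (40.3%, interval 36.6 to 44.1%) for deserts with 0 sites. Among all 21755 coding genes the share was 54.7%, so that the genes of site-free deserts were below and those of site-rich deserts above this value. Both flanking genes had a promoter site in 53.9% of site-rich and 15.5% of site-free deserts, and neither had one in 6.03% and 38.7%. Site-rich deserts had more territory, with a median of 573 kb compared to 170 kb. In a comparison chosen after the values were seen and restricted to deserts with at least 1 Mb of territory, the shares were 70.8% of 137 and 29.5% of 61 genes.

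**Figure D4:**
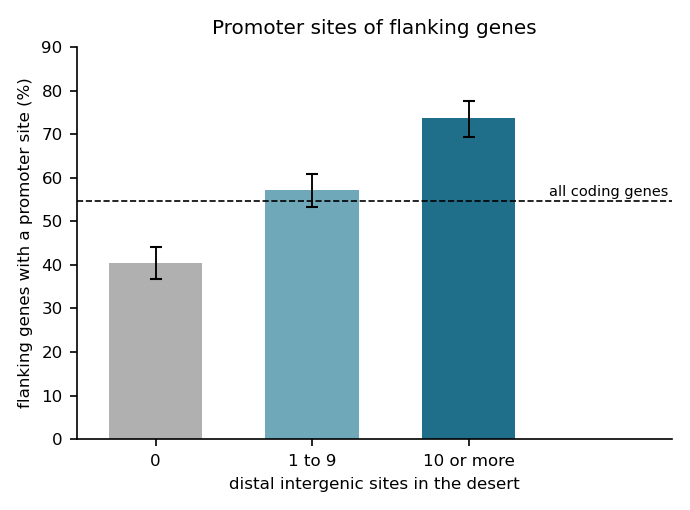
Share (%) of coding genes with a promoter site among those that flank deserts with 0, 1 to 9, or 10 or more distal intergenic sites, with 95% Wilson intervals. The shares are 40.3%, 57.1% and 73.7%, and the dashed line is the 54.7% of all coding genes.

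Within a desert, the sites were not clearly shifted towards the gene with a promoter site. In 256 deserts with sites, only 1 side was flanked by a gene with a promoter site. A chromosome end counted as a side without one. Of the 2806 distal sites in them, 1480 (52.7%) were nearer to the gene with the promoter site, compared to 49.95% of the territory. The share of sites was larger than that of territory in 129 of these deserts, smaller in 114 and neither in the others.

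The genes that flanked deserts were sorted by 4 lists of gene families. Developmental transcription factors made up 32 of the 445 genes at site-rich deserts (7.19%), 28 of 630 at deserts with 1 to 9 sites (4.44%) and 26 of 652 at site-free deserts (3.99%), compared to 1.63% of all coding genes. Of these, 28 of 32 at site-rich deserts and 8 of 26 at site-free deserts had a promoter site. Those at site-rich deserts included Sox9, Klf4, Runx1, Tbx18, Tbx3, Nr2f2, Zeb2 and Gli3. Matrix and secreted factors made up 24 genes at site-rich deserts (5.39%), among them Thbs1, Tnc, Adamts5, Inhba, Fgf9, Fn1, Col3a1 and Cxcl12, and 21 of them had a promoter site. It was 16 genes (2.45%) at site-free deserts, 7 of which had one. The share of all coding genes was 2.15%.

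Adhesion and guidance genes, such as cadherins, protocadherins and ephrins, were more evenly placed. They made up 28 genes (6.29%) at site-rich and 35 (5.37%) at site-free deserts, compared to 1.04% of all coding genes, and 19 and 9 of them had a promoter site. Ion channels and neurotransmitter receptors made up 9 genes (2.02%) at site-rich, 20 (3.17%) at deserts with 1 to 9 sites and 19 (2.91%) at site-free deserts, compared to 0.919% of all coding genes. A promoter site was found for 4, 5 and 4 of them. Developmental transcription factors, adhesion and guidance genes, and ion channels and neurotransmitter receptors were thus more frequent at site-free deserts than among all coding genes. For matrix and secreted factors the shares, 2.45% and 2.15%, were close. The differences between the kinds of desert were not tested.

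The base composition of distal intergenic sites differed from that of the distal territory as a whole. Their immediate surroundings were not measured. Their mean GC content was 47.0%, compared to 38.5% of the 2553313 windows of 200 bp within the territory that overlapped no site. It was 48.3% for nearer intergenic and 54.6% for promoter sites. Repeats made up 25.8% of distal sites on average, compared to 40.9% of the territory and 21.5% of nearer intergenic sites. More than 50% repeat sequence was found in 20.03% of distal and 12.6% of nearer sites. The mean observed to expected CpG ratio was 0.162, compared to 0.198 for nearer intergenic and 0.498 for promoter sites.

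Short motifs were counted on both strands in the 200 bp around the middle of each site. The AP-1 motif TGANTCA was present in 657 distal sites (9.29%, interval 8.63 to 9.99%), compared to 9.72% of nearer intergenic, 8.44% of genic and 4.89% of promoter sites and 8.09% of all sites. It was present in 5.97% of the territory windows. This order depended on the length searched. Over whole sites, which are wider in the other classes, AP-1 was present in 18.4% of distal sites, 20.97% of genic, 18.6% of promoter and 21.1% of all sites, so that distal sites had the lowest share. The TEAD motif GGAATG was present in 15.0% of distal sites (interval 14.2 to 15.9%), 13.6% of nearer intergenic, 9.75% of promoter and 12.3% of all sites, and in 11.0% of territory windows. The RUNX motif TGTGGT was present in 15.8% of distal sites, 16.5% of nearer intergenic sites and 12.1% of territory windows. When only the 1400 distal sites without repeats and the 417566 windows without repeats were considered, AP-1 was present in 10.4% and 8.01%, and TEAD in 15.1% and 12.2%. The windows differed from the sites in GC content, and the part of this difference in the motif shares was not tested.

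Motifs typical of promoters were rare. The GC box GGGCGG was present in 2.30% of distal sites, compared to 22.7% of promoter sites and 0.882% of territory windows. The ETS motif CCGGAAG was present in 0.778% of distal sites, 4.21% of promoter sites and 0.328% of territory windows. The CRE motif TGACGTCA was present in 3 distal sites (0.0424%), 0.468% of promoter sites and 0.0673% of territory windows. In contrast, CCAAT, the core bound by NF-Y, was present in 27.6% of distal sites, 17.1% of promoter sites and 33.6% of territory windows. A match describes the letters of a window and does not show binding.

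Among distal sites, the widest had AP-1 matches most often. When distal sites were divided into 4 groups of equal size by width, AP-1 was present in 9.44% of the narrowest (200 to 240 bp), 7.58% and 8.31% of the middle groups and 11.8% (interval 10.4 to 13.4%) of the widest (485 to 5242 bp). TEAD was present in 16.0%, 14.9%, 14.4% and 14.7%. A neighbour within 1 kb was found for 45.3% of the narrowest and 73.8% of the widest group. By distance, AP-1 was present in 9.13%, 9.54%, 8.68% and 11.4% of the sites in the 4 bands from 200 kb outwards, with an interval of 8.34 to 15.5% in the outermost, which held 306 sites.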

How the data were processed

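The deposited file held positions in base pairs (chromosome, start and end), a unit of another kind than counts or signal, pooled over all samples. The authors used Trim Galore for trimming, BWA for alignment to mm10 and SAMtools for filtering, pooled the replicates with Picard and ran MACS2 for narrow peaks. Versions, thresholds and the way peaks were joined are not given in the sources used here. Joining can widen a site beyond its width in any sample. Starts were read as counted from 0 and are printed counted from 1.

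Sites were placed by their middle on GENCODE release M21 (the authors used a later release) and on the soft-masked RefSeq sequence GRCm38.p6. The distances were 200 kb and 3 kb, the promoter window was 1 kb and the cluster gap was 10 kb. The distal territory was every base outside assembly gaps that met the same criteria. Windows of 200 bp that lay wholly within it and overlapped no site served as background for motifs. Confidence intervals are 95% Wilson intervals. The 57 sites on other sequences, and 239 sites of the chromosome 15 stretch, were left out. Python 3.11.15 was used for calculations, together with pandas 2.3.3, numpy 2.4.6 and scipy 1.17.1, and matplotlib 3.10.9 for plots. The procedures were tested on simulated data.

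Members, gene lists and comparisons were chosen with earlier results of these data known. The text names the flanking genes of the 12 deserts with most sites, the 5 widest sites, the 5 largest clusters, the site farthest from a coding TSS, the 5 longest site-free deserts, non-coding genes that overlap these, and members of the 4 gene lists. Mir148a was named after its value was seen. Alternatives comprised other distances, annotations, gaps, windows and omissions.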

Additional observations from a re-analysis of the deposited data

Results flagged for a closer look

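Of the list, 57 sites lay on sequences outside chromosomes 1 to 19 and X and were not placed relative to genes. The stretch of chromosome 15 that was left out held a further 239 distal intergenic sites with a median width of 370 bp on 3.5 Mb, and with them the stretch would account for 3.27% of all distal intergenic sites.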

How the results depend on the processing

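Of 40 alternatives to the 7 main values, 5 were added after the data were seen. Of the 40, 18 stayed within the limits set for a shift and 22 moved beyond them. None was counted as reversed, but the share of distal sites with AP-1 had no direction of its own. Its order relative to other classes did change, as given below. With a distance of 100, 300 and 500 kb in place of 200 kb, there were 13177, 4193 and 1689 sites in place of 7073 and the density ratio was 0.378, 0.229 and 0.156 in place of 0.287. The number of deserts that held 50.2% of the sites at 200 kb, 77, was 133 at 100 kb and 49 at 300 kb for the same criterion. The width ratio was 0.799 at 500 kb. Without the narrowest 25% of all sites, 4650 sites were left, the width ratio was 0.850 and 57.3% were in clusters of 3 or more, compared to 63.7%. This share was 57.1% with a gap of 5 kb and 70.9% with 20 kb. Counted over bases outside repeats, the density ratio was 0.319. Without the desert between Rasgrp1 and Thbs1, it was 0.278 and the share in clusters was 62.5%. The difference in promoter sites between flanking genes of site-rich and site-free deserts, 33.4 percentage points, was 28.9 when 5 sites made a desert site-rich, 42.8 when only the nearer flanking gene was counted and 41.3 among deserts with 1 Mb or more of territory. AP-1 was present in 4.47% of distal sites within 100 bp and in 18.4% of whole sites, compared to 4.77% and 24.0% of nearer intergenic sites. With 100 bp, as with 200 bp, the share in distal sites was above that in genic (4.20%), promoter (2.30%) and all sites (3.95%), whereas over whole sites it was below all of these (20.97%, 18.6% and 21.1%). No paired analysis was possible because positions were pooled over all samples, and for the same reason no replicate could be left out. The list gave neither the reads behind a site nor the sample in which it was found.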
